A study of Homo sapiens with 3 samples.

Results

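The genes described here are 9 members of the human PARP family and DTX3L, the ubiquitin ligase that binds PARP9. They were chosen by symbol, 10 of the 22613 genes listed in each library, and all 10 had a mean of at least 1 FPKM and were tested. PARP9, PARP10, PARP12, PARP14, DTX3L and ZC3HAV1 form an interferon-linked set, PARP1 and PARP2 a DNA-damage set, and PARP4 and TNKS belong to neither. RNA sequencing was done on LNCaP-abl cells, a prostate cancer line that grew out of LNCaP without androgen, at passage 53-60, grown in medium with charcoal-stripped serum and harvested 72 h after transfection by Lipofectamine RNAiMAX. The siE2F1 group received a pool of siRNAs against the transcription factor E2F1 and holds 1 library. The control group received control siRNA and holds 2 libraries, numbered 0 and 1 in the labels, which do not say whether the cultures were separate. P-values therefore rest on how far these 2 controls lie from each other, a spread that may be technical, and the siE2F1 library is assumed to vary as they do. The numbers of reads were not given, so depth is unknown.

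PARP enzymes take NAD and attach its ADP-ribose part to proteins and nucleic acids, as chains or as single units. PARP1 and PARP2 bind broken DNA and build chains that recruit repair proteins. Several other members attach single units or have lost the activity, and many of these are induced by interferon and act against viruses. Interferon signalling reaches such genes through a complex with STAT2 and IRF9, which binds a DNA element called the interferon-stimulated response element (ISRE).

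Promoter sequences are shown first, because PARP9, DTX3L and PARP14 lie near each other and were all higher in siE2F1. RefSeq's table for GRCh38.p14 held promoter windows, from 250 bases before to 50 bases after a transcription start, for 7 of the 10 genes, with 2 starts for PARP9. Capitals mark matches, on either strand, to an ISRE-like motif (GAAANNGAAA) or an E2F-like motif (TTNNCGC, with C or G at each N). The expression files were made on hg19, so these coordinates belong to the sequence table alone. The windows of DTX3L (chr3:122564088-122564387, plus strand), PARP14 (chr3:122680589-122680888, plus strand) and PARP12 (chr7:140062902-140063201, minus strand) are printed for their ISRE-like matches. Those of PARP1 (chr1:226408044-226408343, minus strand) and PARP2 (chr14:20343385-20343684, plus strand) are printed for the comparison with the DNA-damage set. Each runs 5′ to 3′ along its gene.
DTX3L: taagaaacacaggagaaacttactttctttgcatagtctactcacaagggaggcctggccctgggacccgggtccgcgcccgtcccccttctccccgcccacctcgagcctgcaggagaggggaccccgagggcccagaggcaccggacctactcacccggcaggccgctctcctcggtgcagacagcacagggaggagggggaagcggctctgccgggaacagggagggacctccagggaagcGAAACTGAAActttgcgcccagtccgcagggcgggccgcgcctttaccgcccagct
PARP14: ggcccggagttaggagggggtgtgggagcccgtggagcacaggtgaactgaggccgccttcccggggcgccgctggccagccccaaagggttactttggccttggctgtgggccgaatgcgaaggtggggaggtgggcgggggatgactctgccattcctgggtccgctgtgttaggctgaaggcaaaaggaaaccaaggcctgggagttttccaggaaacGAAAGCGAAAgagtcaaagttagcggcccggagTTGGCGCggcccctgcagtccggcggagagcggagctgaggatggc
PARP12: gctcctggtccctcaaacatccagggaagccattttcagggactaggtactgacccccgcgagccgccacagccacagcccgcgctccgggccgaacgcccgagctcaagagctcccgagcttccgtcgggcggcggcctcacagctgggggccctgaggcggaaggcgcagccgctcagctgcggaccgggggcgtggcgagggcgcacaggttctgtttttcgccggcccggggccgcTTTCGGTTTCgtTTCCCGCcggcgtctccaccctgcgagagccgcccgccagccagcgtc
PARP1: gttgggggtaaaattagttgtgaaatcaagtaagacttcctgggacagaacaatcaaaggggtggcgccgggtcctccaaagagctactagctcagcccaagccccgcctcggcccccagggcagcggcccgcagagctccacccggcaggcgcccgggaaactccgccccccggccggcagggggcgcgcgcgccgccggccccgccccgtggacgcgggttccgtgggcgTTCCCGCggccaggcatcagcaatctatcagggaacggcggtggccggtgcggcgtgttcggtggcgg
PARP2: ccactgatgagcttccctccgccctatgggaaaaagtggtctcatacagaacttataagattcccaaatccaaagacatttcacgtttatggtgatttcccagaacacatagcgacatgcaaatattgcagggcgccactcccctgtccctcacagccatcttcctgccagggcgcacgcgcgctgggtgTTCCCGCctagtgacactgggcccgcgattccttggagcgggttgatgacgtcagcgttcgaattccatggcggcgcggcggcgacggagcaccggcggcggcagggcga

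The ISRE-like motif was found in the windows of DTX3L, PARP14, PARP12 and the second PARP9 start, and in 3.57% of all 35116 promoter windows of the same length. Both motifs were chosen after the sequences and values had been seen, so the shares over all windows are a description and not a test. PARP9 and DTX3L are transcribed away from each other, and their match is the same 10 bases, chr3:122564332-122564341. It spans bases -6 to 3 of the DTX3L window (the start being 0) and bases -41 to -32 of the second PARP9 window (chr3:122564251-122564550, minus strand), 137 bases of which are the reverse complement of the DTX3L window. In PARP14 the match lay at bases -29 to -20 and in PARP12 at bases -10 to -1. The E2F-like motif was found in PARP1 (bases -18 to -12) and PARP2 (bases -60 to -54), and also in PARP14 (bases 4 to 10) and PARP12 (bases 2 to 8), against 12.97% of all windows, so it did not separate the DNA-damage set from the interferon-linked one. The windows of ZC3HAV1 and of the first PARP9 start held neither motif. The motifs do not overlap each other in these windows, and a match is a description of letters, not evidence of binding.

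**Figure D1:**
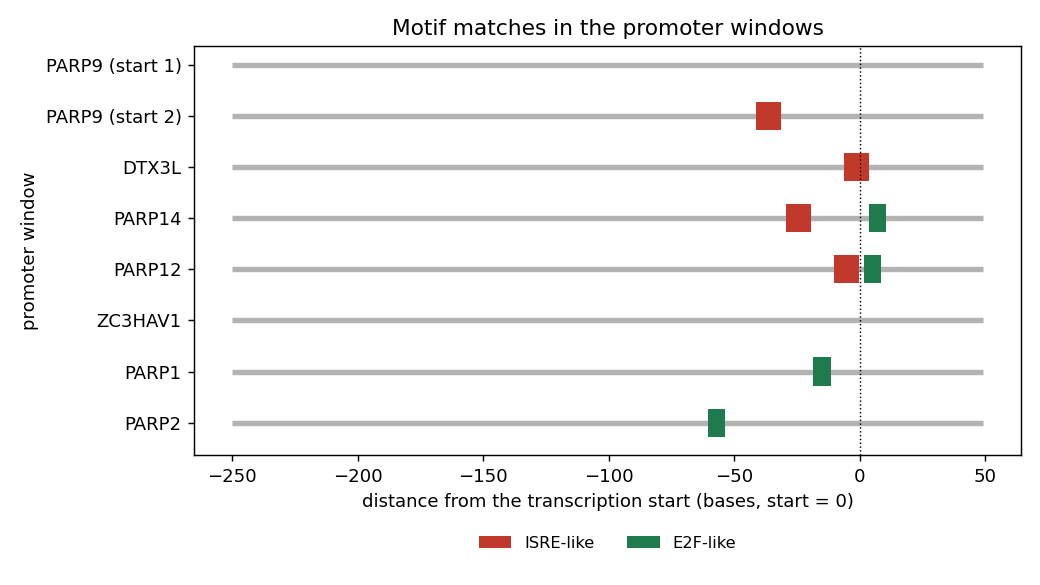
Motif matches in the 8 promoter windows of 7 genes. Each grey line is a window of 300 bases, placed by distance from its transcription start in bases (x axis), with ISRE-like matches in red and E2F-like matches in green; the ISRE-like matches of PARP9, DTX3L, PARP14 and PARP12 lie between 41 bases before and 3 bases after the start.

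E2F1 itself, the target of the siRNA pool, was at 1.68 FPKM in siE2F1, against 10.6 FPKM in each control (log2 fold change -2.12, SE 0.0605, limma adjusted p = 0.0311). That call was lost with a pseudocount of 0.1 (limma adjusted p = 0.0601) and without the minimum of 1 FPKM (0.159). FPKM counts fragments per length of transcript and per total of mapped fragments, so levels can be compared between genes. Each fold change below is siE2F1 minus the control mean of log2(FPKM + 1), a scale on which low genes appear to change less than they do. The luminal prostate markers FOXA1, HOXB13, KRT8 and KRT18 lay between 94.6 and 163.7 FPKM over the 3 libraries, while KLK3 was at 0.156 FPKM in siE2F1 and at 0.152 and 0.0531 FPKM in the controls. Of 3 basal markers KRT14 was listed, at 0 in each library. The 2 leukocyte markers listed of 3, PTPRC and CD68, summed to 6.09 FPKM in siE2F1 and to 6.31 and 6.44 FPKM in the controls. The 3 of 6 stromal and endothelial markers listed summed to 1.60 FPKM in siE2F1 and to 1.86 and 1.72 FPKM in the controls.

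The interferon-linked genes were higher and the DNA-damage genes lower in siE2F1. All 6 interferon-linked genes lay above both controls, where 43.7% of all genes tested did, and both DNA-damage genes below both, where 39.7% did. The median log2 fold change was 0.44 for the interferon-linked genes (range 0.09 to 0.69) and -0.39 for PARP1 and PARP2, against 0.01 over all genes tested. The difference between these medians was 0.82; it was 0.89 against control 0 alone and 0.78 against control 1 alone, and control 1 minus control 0 gave 0.13. Summed levels were 81.7 FPKM in siE2F1 for the interferon-linked genes, against 58.8 and 58.4 FPKM in the controls. For PARP1 and PARP2 the sum was 77.7 FPKM in siE2F1, against 114.3 and 100.0 FPKM in the controls. In RNA from whole cultures, a change in fewer cells and a smaller change in every cell cannot be told apart.

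Over the 14401 genes tested, limma called 0 of the 10 genes higher and 0 lower at an adjusted p of 0.05, where 0.312% of genes were called higher and 0.104% lower. At an unadjusted p under 0.05 there were 5 of the 10 higher and 2 lower, where 13.5% of all genes tested were higher and 14.9% lower. When 473 small RNA genes were left out of the fit, 4 of the 10 rose, PARP14, PARP10, DTX3L and PARP9, and 0 fell, with 4.17% of 13928 genes called higher and 6.36% called lower. These 4 calls are lost when the small RNA genes are kept in the fit. PARP10 passed the minimum of 1 FPKM only through the siE2F1 library, in which it was high. Without it 3 of the other 9 genes rose when small RNA genes were left out. Of these 9, 4 were higher at an unadjusted p under 0.05 by limma, with ZC3HAV1 at the threshold among them.

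**Figure D2:**
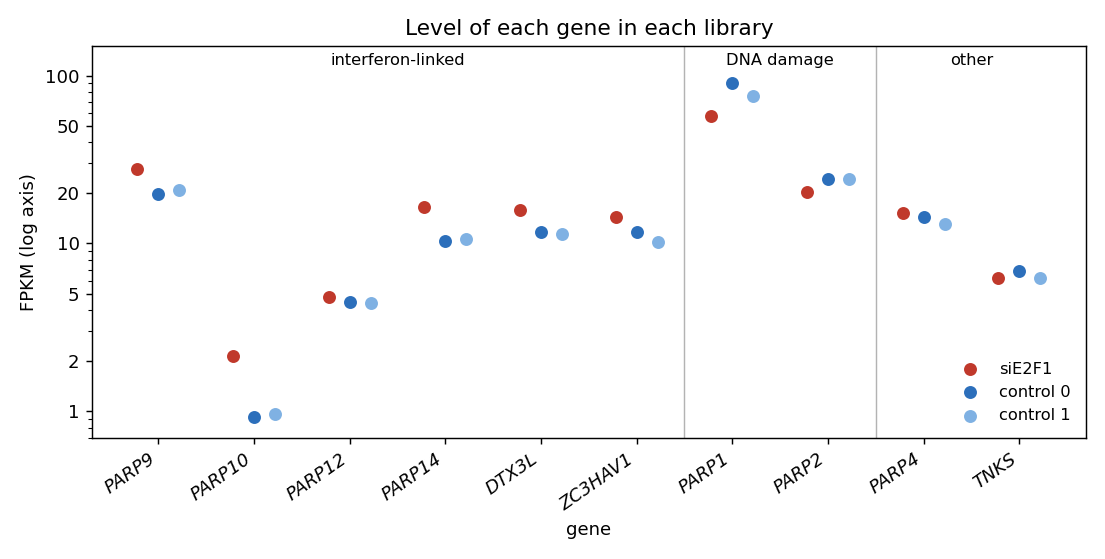
Level of each of the 10 genes in each library, in FPKM on a log axis, with siE2F1 in red and the controls in blue; each point is 1 library. PARP9, PARP10, PARP14, DTX3L and ZC3HAV1 stand above both control points, PARP1 and PARP2 below, while the points of PARP12, PARP4 and TNKS lie close together.

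PARP9 and DTX3L form a complex in which DTX3L transfers ubiquitin and PARP9 binds ADP-ribose through its macrodomains. PARP9 was at 27.9 FPKM in siE2F1, against 19.8 and 20.8 FPKM in the controls. The siE2F1 library was the highest and stood 37.5% above the control mean of 20.3 FPKM ± 0.695 (SD, n = 2). Its log2 fold change was 0.44 (SE 0.0688, limma adjusted p = 0.115, and 0.0463 without small RNA genes). DTX3L was at 15.9 FPKM in siE2F1, against 11.7 and 11.4 FPKM in the controls. It was 38.2% above the control mean of 11.5 FPKM ± 0.212 (SD, n = 2), with a log2 fold change of 0.43 (SE 0.0614, limma adjusted p = 0.112, and 0.0450 without small RNA genes). The level of DTX3L was 0.57 times that of PARP9 in siE2F1, between the 0.588 of control 0 and the 0.546 of control 1, so the proportion of their levels stayed within the spread of the controls. The libraries do not mark strand, and the first PARP9 start in RefSeq lies 446 bases inside DTX3L, so reads from that stretch cannot be assigned to either gene; the second start lies 38 bases outside it.

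PARP14, a large protein with macrodomains that attaches single ADP-ribose units, had a larger fold change than either, a difference that was not tested. It was at 16.5 FPKM in siE2F1, against 10.3 and 10.7 FPKM in the controls. No control value reached the siE2F1 value, which was 1.57 times the control mean of 10.5 FPKM ± 0.294 (SD, n = 2). Its log2 fold change was 0.61 (SE 0.0648, 95% interval 0.39 to 0.83, limma adjusted p = 0.111, and 0.0364 without small RNA genes), higher than 96.5% of the genes tested. Its level was 1.04 times that of DTX3L in siE2F1 but 0.882 and 0.942 times in the controls.

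PARP9, DTX3L and PARP14 are neighbours on chromosome 3, with PARP15, which is not among the genes listed in the libraries, between DTX3L and PARP14. The surrounding genes, chosen after the values of these 3 had been seen, lay on both sides of the controls. On the PARP9 side, KPNA1, an importin that carries proteins into the nucleus, was at 13.3 FPKM in siE2F1 and at 14.4 and 14.0 FPKM in the controls (log2 fold change -0.09, SE 0.0617). On the PARP14 side, HSPBAP1 was at 4.47 FPKM in siE2F1 and at 3.75 and 3.93 FPKM in the controls (0.18, SE 0.0703). Of the 7 other listed genes in this stretch, from CCDC58 to PDIA5, 3 were above both controls, FAM162A, HSPBAP1 and PDIA5. The other 4, CCDC58, WDR5B, KPNA1 and DIRC2, were below both. Over all genes tested, 43.7% were above both controls and 39.7% below. Their log2 fold changes ran from -0.55 for CCDC58 to 0.18 for HSPBAP1, against the 0.43 to 0.61 of DTX3L, PARP9 and PARP14. CCDC58 thus had a larger difference than PARP9 or DTX3L, in the other direction. Its limma adjusted p was 0.126, and 0.0474 without small RNA genes, where 6.36% of all genes were called lower.

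**Figure D3:**
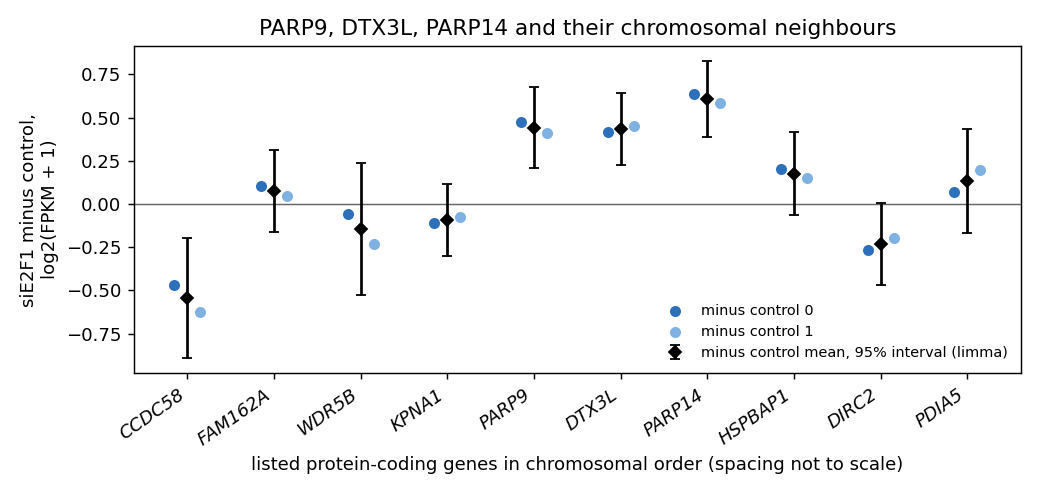
Differences between siE2F1 and the controls, in log2(FPKM + 1), for the 10 listed protein-coding genes around PARP9, DTX3L and PARP14, in chromosomal order. Diamonds are the difference from the control mean with its 95% limma interval, and circles the difference from each control. The 3 PARP locus genes stand at 0.43 to 0.61 and the 7 others from -0.55 to 0.18.

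PARP10, an enzyme that attaches single ADP-ribose units and was found as a partner of MYC, was the lowest of the 10 genes. It was at 2.15 FPKM in siE2F1, against 0.928 and 0.970 FPKM in the controls. The siE2F1 value was 2.26 times the control mean of 0.949 FPKM ± 0.0299 (SD, n = 2), the highest ratio among the 10 genes. PARP10 lay above both controls, as did 43.7% of all genes tested. Its log2 fold change was 0.69 (SE 0.0868, limma adjusted p = 0.111, and 0.0403 without small RNA genes), and 1.10 with a pseudocount of 0.1. Its mean over the 3 libraries was 1.35 FPKM, with both controls under the minimum of 1 FPKM. Without PARP10 the other 5 interferon-linked genes had a median of 0.43, and all 5 lay above both controls, where 43.7% of all genes tested did.

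ZC3HAV1, also called ZAP or PARP13, is an inactive family member that binds CpG-rich viral RNA and brings in RNA decay enzymes. It was at 14.4 FPKM in siE2F1, against 11.7 and 10.2 FPKM in the controls. The siE2F1 library was highest, although the controls themselves lay further apart than for the other interferon-linked genes (10.95 FPKM ± 1.02, SD, n = 2). The log2 fold change was 0.37 (SE 0.109, limma adjusted p = 0.176, and 0.0961 without small RNA genes). PARP12, a zinc-finger enzyme that attaches single ADP-ribose units, differed least of the 6. It was at 4.79 FPKM in siE2F1, against 4.48 and 4.40 FPKM in the controls. Its log2 fold change of 0.09 had a 95% interval of -0.13 to 0.31 (limma adjusted p = 0.432), and its window is among those printed with an ISRE-like match next to the start.

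PARP1, the most abundant of the 10 genes in every library, makes most of the poly-ADP-ribose formed at DNA breaks. It was at 57.5 FPKM in siE2F1, against 90.0 and 75.6 FPKM in the controls. The siE2F1 value was 30.5% below the control mean of 82.8 FPKM ± 10.2 (SD, n = 2), and the controls differed from each other by 0.25 log2 units, against 0.39 between siE2F1 and the nearer control. The log2 fold change was -0.51 (SE 0.145, 95% interval -1.01 to -0.02, limma adjusted p = 0.171, and 0.0776 without small RNA genes). PARP2, its closest relative, also responds to DNA breaks. It was at 20.2 FPKM in siE2F1, against 24.3 and 24.4 FPKM in the controls. It was 17.0% lower in siE2F1, and its controls agreed within 0.005 log2 units, so its log2 fold change of -0.26 had a smaller error than that of PARP1 (SE 0.0592, limma adjusted p = 0.143, and 0.0972 without small RNA genes). RefSeq lists pseudogenes of PARP1, which may share reads with it.

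PARP4 and TNKS had intervals that include 0. PARP4, a component of the vault particle, was at 15.1 FPKM in siE2F1, against 14.4 and 13.1 FPKM in the controls. Its log2 fold change was 0.13, with a 95% interval of -0.18 to 0.43 (limma adjusted p = 0.430), and pseudogenes of PARP4 may share its reads. TNKS, tankyrase, which modifies axins and the telomere protein TERF1, was at 6.27 FPKM in siE2F1, between the 6.85 and 6.26 FPKM of the controls. Its log2 fold change was -0.05, with a 95% interval of -0.34 to 0.23 (limma adjusted p = 0.697).

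**Figure D4:**
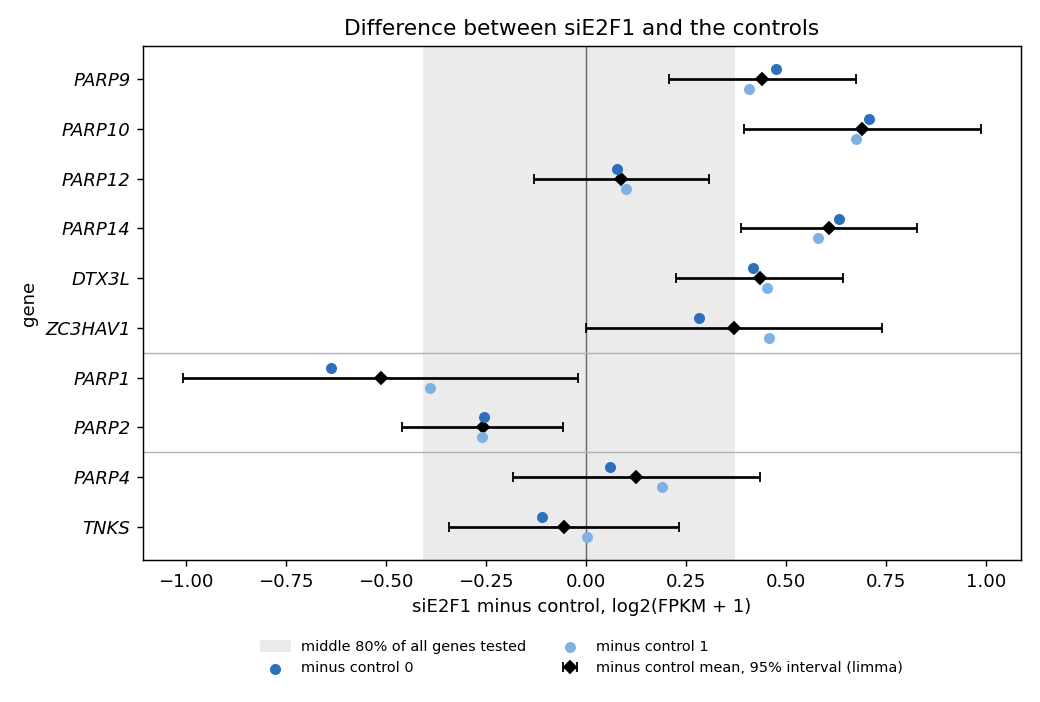
Difference between siE2F1 and the controls for each of the 10 genes, in log2(FPKM + 1). Diamonds are the difference from the control mean with its 95% limma interval, circles the difference from each control, and the grey band the middle 80% of all genes tested; PARP9, PARP10, PARP14 and DTX3L lie above the band, ZC3HAV1 at its upper edge and PARP1 below it.

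The order of levels differed between the groups. In siE2F1 it was PARP1, PARP9, PARP2, PARP14, DTX3L, PARP4, ZC3HAV1, TNKS, PARP12 and PARP10, and in the controls PARP1, PARP2, PARP9, PARP4, DTX3L, ZC3HAV1, PARP14, TNKS, PARP12 and PARP10. PARP9 stood above PARP2 in siE2F1 and below it in both controls. PARP14 stood above DTX3L in siE2F1 and below it in both controls, and the control values of ZC3HAV1 overlapped those of PARP14 and DTX3L, so its own place among them is not set by these data. The level of PARP9 was 0.485 times that of PARP1 in siE2F1, against 0.22 and 0.275 times in the controls.

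The other PARP genes lay on both sides of the controls, while the 2 tested Deltex genes lay above both. Of 6 other PARP genes tested, 3 were above both controls and 2 below, where 43.7% and 39.7% of all genes tested were. Their median log2 fold change was 0.06, and 0 were called in either fit, where at most 6.36% of all genes were called in a given direction. At an unadjusted p under 0.05 by limma 1 was higher and 1 lower, against 13.5% and 14.9% of all genes. PARP3, which acts in repair of double-strand breaks, was at 4.46 FPKM in siE2F1 and at 3.28 and 3.48 FPKM in the controls (0.32). TIPARP, a target of the aryl hydrocarbon receptor, was at 2.78 FPKM in siE2F1 and at 3.48 and 3.61 FPKM in the controls (-0.27). PARP11 had a log2 fold change of 0.18. TNKS2, the near relative of TNKS, was at 20.1 FPKM in siE2F1 and at 20.4 and 20.7 FPKM in the controls (-0.03). The 2 tested relatives of DTX3L, DTX3 and DTX2, had log2 fold changes of 0.34 and 0.31 and were not called in either fit. Both were higher at an unadjusted p under 0.05 by limma, where 13.5% of all genes were. DTX4 was too low to test.

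The partners of PARP1 in single-strand break repair had a median log2 fold change of -0.07, against 0.01 over all genes tested. Of 10 tested, 3 were above both controls and 5 below, where 43.7% and 39.7% of all genes were. None was higher and 3 were lower at an unadjusted p under 0.05 by limma, against 14.9% of all genes lower. In the limma fit over all genes 0 were called, and without small RNA genes 1 fell, against 6.36% of all genes called lower there. That gene was FEN1, a flap endonuclease that also acts in DNA replication, at 25.9 FPKM in siE2F1 and at 39.4 and 38.6 FPKM in the controls (-0.57, limma adjusted p = 0.111, and 0.0365 without small RNA genes). APTX, which removes AMP from DNA ends, had a log2 fold change of -0.23. The 5 tested genes that remove ADP-ribose had a median of -0.04, with 1 above both controls and 3 below, where 43.7% and 39.7% of all genes were. In the limma fit over all genes 0 were called, against 0.312% called higher and 0.104% lower. Without small RNA genes 0 were called, against 4.17% and 6.36%. At an unadjusted p under 0.05 by limma there were 0, against 13.5% of all genes higher and 14.9% lower. MACROD1 was at 0.16, ADPRHL2 at -0.12 and PARG, which cuts the chains, at -0.08.

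Genes around TNKS, NAD and ZC3HAV1 lay on both sides of the controls. Of the 6 tankyrase partners and targets, 5 were below both controls, where 39.7% of all genes tested were, and 1 above, where 43.7% were. Their median log2 fold change was -0.23. These 6 include TNKS2, below both controls at -0.03, which was also counted among the other PARP genes. In either limma fit 0 were called, where at most 6.36% of all genes were called in a given direction. At an unadjusted p under 0.05 by limma 3 were lower, against 14.9% of all genes. RNF146, the ubiquitin ligase that reads tankyrase's marks, was at 9.21 FPKM in siE2F1 and at 12.7 and 12.2 FPKM in the controls (-0.40), while AXIN1 was at -0.25 and NUMA1, of the spindle poles, at 0.41. Of the 7 tested genes of NAD supply, 5 were above both controls and 2 below (median 0.24), where 43.7% and 39.7% of all genes tested were. None was called over all genes, and 2 were higher and 1 lower at an unadjusted p under 0.05 by limma, against 13.5% and 14.9% of all genes. Without small RNA genes 1 was called higher, NADSYN1 (limma adjusted p = 0.04997 there), against 4.17% of all genes. NMRK1 had a log2 fold change of 0.45 and NADSYN1 of 0.41, and NAMPT, which recycles nicotinamide, was at 41.0 FPKM in siE2F1 and at 53.1 and 57.3 FPKM in the controls (-0.42). Of the 18 genes that act with ZC3HAV1 on RNA, 5 were above and 10 below both controls (median -0.12), where 43.7% and 39.7% of all genes tested were. None was called over all genes, and 2 were higher and 6 lower at an unadjusted p under 0.05 by limma, against 13.5% and 14.9% of all genes. Without small RNA genes 1 was called lower, against 6.36% of all genes. That was PARN, which removes poly(A) tails, at 11.2 FPKM in siE2F1 and at 16.5 and 17.2 FPKM in the controls (-0.54, limma adjusted p = 0.111, and 0.0385 without small RNA genes). DIS3, a nuclease of the exosome, was at -0.41 and the exonuclease XRN1 at 0.39.

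**Figure D5:**
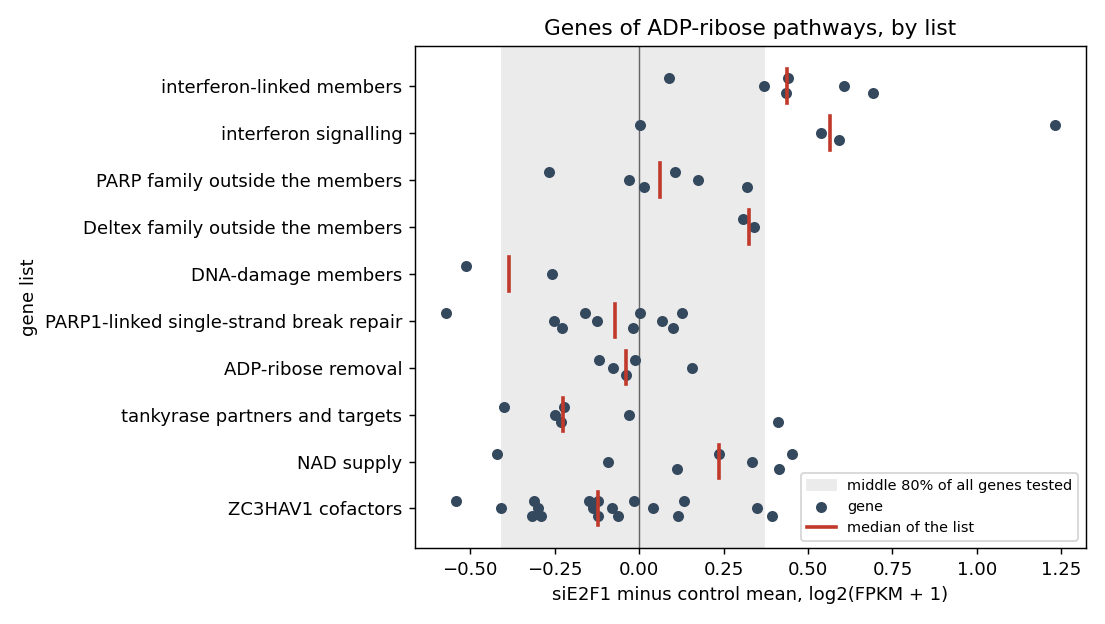
Log2 fold changes of the tested genes of 10 lists, siE2F1 minus the control mean of log2(FPKM + 1). Each point is a gene, the red bar the median of its list and the grey band the middle 80% of all genes tested; the interferon-linked and interferon signalling lists have medians of 0.44 and 0.57, the DNA-damage genes of -0.39, and the other lists lie between.

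Among factors that carry the interferon signal, STAT2 and IRF9 were above both controls. IRF9 was at 11.2 FPKM in siE2F1 and at 4.29 and 4.13 FPKM in the controls (log2 fold change 1.23, limma adjusted p = 0.0945, and 0.0221 without small RNA genes). STAT2 was at 22.4 FPKM in siE2F1 and at 15.98 and 13.2 FPKM in the controls (0.59, limma adjusted p = 0.151, and 0.0641 without small RNA genes). IRF1 was at 3.89 FPKM in siE2F1, between the controls at 4.07 and 3.70 FPKM.

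The genes nearest in pattern were found by the distance between centred log2(FPKM + 1) values among 9213 genes of at least 5 FPKM. With 3 libraries such a pattern is shared by many genes. SLFN5 was nearest to PARP14 (13.7 FPKM in siE2F1, against 8.43 and 8.80 FPKM in the controls), followed by PGAM2, and 141 genes lay within 0.1 log2 units of it. TSPAN9 and MAPK8 were nearest to PARP9, with 425 genes within that distance, and LITAF and DHRS1 to DTX3L, with 456. UCP2 and MKI67, which encodes the proliferation marker Ki-67, were nearest to PARP1, with 63 genes. GRTP1 and UCK2 were nearest to PARP2, with 1090.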

How the data were processed

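RNA was sequenced from 1 siE2F1 and 2 control libraries, with the TruSeq RNA Sample Prep Kit v2, per the labels' protocols. TopHat2 2.0.4, Cufflinks 2.0.2 and hg19 are named in the submitters' processing notes, with the gene annotation not given in the sources used here. Deposited by the authors were log2 FPKM values, 1 value per gene and library. The lowest value equals log2 of 0.1, so FPKM was taken as 2 to the deposited value minus 0.1, which is 0.1 too low if a minimum had been set. Sorted values of the libraries differ by at most 0.0653, a pattern that quantile normalization gives, so a shift common to most genes would be hidden. Depth is unknown and no count model was used.

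Testing covered genes averaging 1 FPKM or more, on log2(FPKM + 1), by limma 3.58.1 in R 4.3.3 (mean-variance trend, two-sided, Benjamini-Hochberg over all genes tested). There was 1 residual degree of freedom per gene, and 1.69 prior degrees of freedom (3.19 without small RNA genes). The limma step was also run on simulated data, which cannot show how far siE2F1 cultures vary, and the outcome is not given here. Small RNA genes are those whose names start with RNU, SCARNA, SNOR or MIR, other than host genes.

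The members, the lists and the alternatives were chosen with earlier results of these data known, and the motifs and chromosomal neighbours after the sequences and values had been seen. Besides the members and E2F1, up to 3 measured genes per list with the largest absolute log2 fold change, and the 2 genes nearest in pattern to 5 members, are named; others are named for a count or a direct comparison. Older and newer symbols were matched by name. The settings varied were the pseudocount, the minimum mean, the scaling, the trend, the subtraction of 0.1, small RNA genes and each control; leaving out PARP10 was added after its values had been seen. Some list members are not named here.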

Additional observations from a re-analysis of the deposited data

How the results depend on the processing

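The interferon-linked median stayed above 0 and that of PARP1 and PARP2 below 0 under the settings that moved a fold change: a pseudocount of 0.1, 0.1 not subtracted and each control left out. Leaving out the small RNA genes, the minimum or the trend cannot move these fold changes, a common median and quantile normalization hardly do in values whose sorted levels already nearly match, and the minimum of 5 FPKM dropped PARP10 and PARP12, the largest and smallest fold changes of the 6, so these say nothing about direction. The interferon-linked median was 0.46 with a pseudocount of 0.1 and 0.446 to 0.455 with a control left out, where no test is possible. Without small RNA genes 1467 genes were called over all genes and 4 of the 10 members were called higher; a pseudocount of 0.1 gave 18 calls and no minimum mean FPKM gave 0 by limma, with 4862 genes at an unadjusted p under 0.05. No member was called under the other settings that allow a test, over which the limma adjusted p of PARP14 ran from 0.0921 to 0.188, against 0.0364 without small RNA genes. TNKS alone changed sign, being -0.11 without control 1 and 0.0023 without control 0; the cause was not tested. With a minimum mean of 5 FPKM, 8 of the 10 members were tested, PARP10 and PARP12 being lower. No paired analysis was possible because siE2F1 has 1 library and the control numbers mark no shared sample.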
